A study of Mus musculus with 26 samples.

Results

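Ubd encodes FAT10, a small protein that cells attach to other proteins in the manner of ubiquitin. It was chosen by the difference in array signal between treated and untreated transplants of the mouse melanoma HCmel3, which was the largest early rise of all genes measured, so that rise is a description and carries no test. The arrays held 1 probe annotated to Ubd among 45260 probes analysed, and Ubd was 1 of the 9553 genes that passed the filter on detection (5 or more arrays of 1 group with a detection p under 0.01).

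RNA from frozen tumours of C57BL6 mice was hybridised to Illumina MouseWG-6 v2.0 bead arrays, with 1 array per tumour. The first deposited table holds 8 tumours excised early during treatment, between day 12 and day 20 (EDT), and 8 untreated tumours (NT). The second holds 5 tumours that regrew after treatment (relapse) and 5 untreated controls (ctrl), under titles marked as re-analyzed, a word that the labels do not explain. Treated mice had received cyclophosphamide, intravenous CD8+ T cells carrying the pmel-1 receptor against the melanocyte antigen gp100, an adenoviral gp100 vaccine, and the innate stimuli CpG and polyI:C. Since every treated mouse had the whole combination, effects of its parts cannot be told apart, and the day of excision of each EDT tumour was not given. Whether each tumour came from its own animal is not stated, so the tumours may not be independent replicates. The p-values set a difference or relation only against the variation among these samples, part of which may be technical. Each array detected between 14064 and 18323 probes at a detection p under 0.01. The arrays lay on 7 slides. Slide 5 held EDT and NT tumours (2 and 3), slide 6 held relapse and ctrl tumours (3 and 3), slide 7 held relapse and ctrl tumours (2 and 2), and slides 1 to 4 held NT or EDT tumours only.

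FAT10 consists of a pair of ubiquitin-like domains and is best known as a protein induced by interferon-gamma and tumour necrosis factor acting together. Unlike most ubiquitin-like modifiers, it marks its targets for breakdown by the proteasome, and work on the human protein assigned its activation to the enzyme UBA6 and its transfer to UBE2Z. The same cytokines replace the catalytic subunits of the proteasome by those of the immunoproteasome, which cuts peptides suited to presentation on MHC class I molecules. In mice Ubd lies at an edge of the MHC region beside Gabbr1 and a cluster of olfactory receptor genes.

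The upstream sequence is shown because the question put to these data was how Ubd moved with cytokine response genes. The RefSeq-derived promoter table (GRCm38.p6) places the 250 bases before the start of Ubd at chr17:37193642-37193891 on the plus strand, and capitals mark the single match to the NF-kB consensus.
Ubd upstream region: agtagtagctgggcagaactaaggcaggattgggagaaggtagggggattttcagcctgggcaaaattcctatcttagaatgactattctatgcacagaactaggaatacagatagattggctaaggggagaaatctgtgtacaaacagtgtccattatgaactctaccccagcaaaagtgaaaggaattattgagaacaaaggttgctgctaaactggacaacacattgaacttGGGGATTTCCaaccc
Both strands were searched for short motifs. The NF-kB consensus, at positions -15 to -6 from the start, occurred in 3.90% of the 32851 mouse promoter windows of the same length. The ISRE core (GAAA, any 2 bases, GAAA) and the letters TATAA had no match in the Ubd window, and occurred in 2.98% and 22.8% of all windows. These matches are descriptions of letters in a window, and no binding was measured.

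In EDT tumours 1 to 8 the raw Ubd signal was 7933, 3252, 5694, 8982, 2060, 1741, 2060 and 7988, against 97.4, 111.5, 90.2, 129.7, 127.3, 108.6, 114.6 and 100.2 in NT tumours 1 to 8. All 8 EDT arrays detected Ubd, while 1 of 8 NT arrays did (replicate 2), and the groups did not overlap. Higher values without overlap were seen in 4.58% of all genes, and no overlap in either direction in 6.07%. The signals of EDT tumours spanned 5.16-fold. After background correction and quantile normalization (neqc), the log2 signal of Ubd averaged 11.80 ± 0.996 in EDT tumours and 4.99 ± 0.37 in NT tumours (SD, n = 8 each). Within its own array, the Ubd probe stood between the 93.9th and 99.0th percentile of probes in EDT tumours and between the 25.4th and 67.9th in NT tumours.

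The difference of 6.81 ± 0.34 on the log2 scale (SE, EDT minus NT) was first of 9553 genes. The next was Trbv13-2, which encodes a variable segment of the T cell receptor beta chain (6.63 ± 0.43), followed by Serpina3f, a serine protease inhibitor gene (6.33 ± 0.41), and Cxcl9, an interferon-gamma-induced chemokine gene (5.91 ± 0.37). The gap between Ubd and Trbv13-2 was smaller than either standard error. Because most NT signals of Ubd lay at background, the size of its difference depended on how background was handled. Without background correction it was 4.92 ± 0.31, and Ubd was then at rank 3. With slide as a fixed block, as within slide 5, where EDT and NT tumours shared a slide, Ubd was at rank 2.

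**Figure D1:**
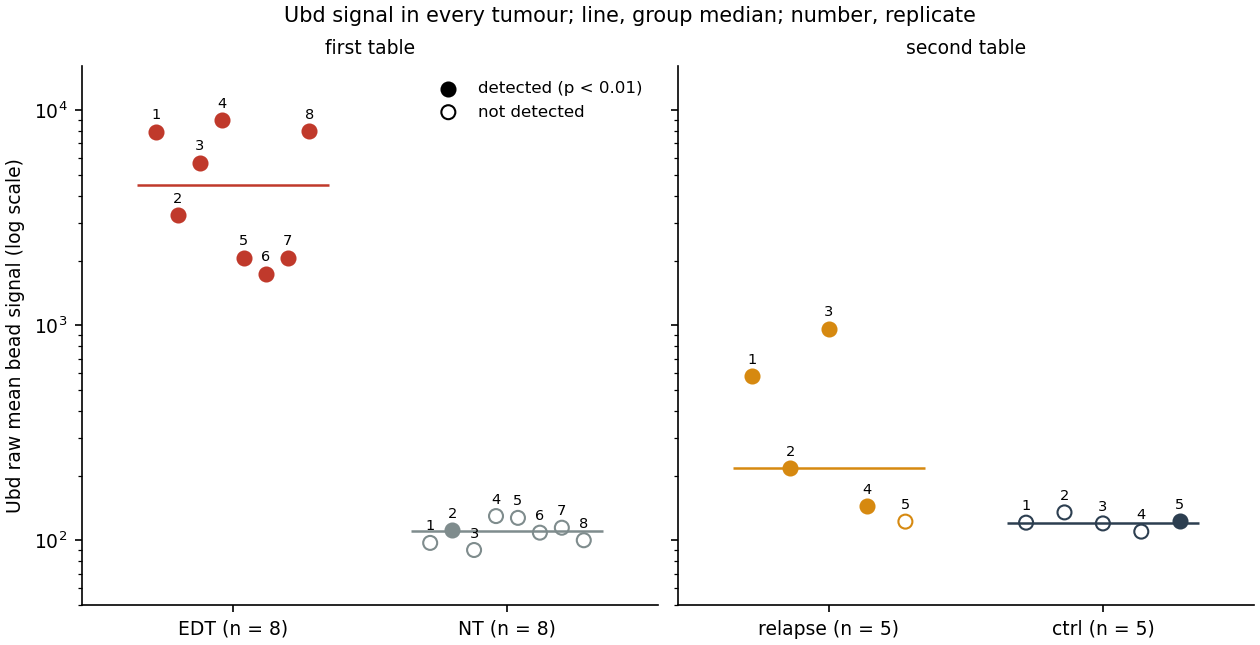
Raw mean bead signal of Ubd (log axis) in every tumour, in EDT and NT tumours of the first table and relapse and ctrl tumours of the second. Filled points were detected, open points were not, numbers are replicates and lines are group medians. The lowest EDT tumour stands at 1741 and the highest NT tumour at 129.7, and relapse tumours spread between 122 and 964.

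In relapse tumours 1 to 5 the raw Ubd signal was 581, 217, 964, 144 and 122, against 120.9, 135.0, 119.9, 109.9 and 122.9 in ctrl tumours 1 to 5. Relapse tumours 1 to 4 were called detected, while in ctrl only replicate 5 was. The standard error between beads, given for these arrays over 28 to 43 beads each, was 30.0, 10.8, 49.1, 7.98 and 4.0 in relapse tumours 1 to 5. This error covers the beads of 1 array and not the variation between tumours. The log2 signal averaged 6.95 ± 2.09 in relapse tumours and 4.99 ± 0.58 in ctrl tumours (SD, n = 5 each). By their spread, relapse tumours placed Ubd at rank 106 of 9553 genes (median SD of all genes 0.41), EDT tumours at rank 299 (median 0.29), ctrl tumours at rank 1657 and NT tumours at rank 4478.

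The relapse minus ctrl difference of Ubd was 1.95 ± 0.81 on the log2 scale (SE) and did not pass the threshold of 0.05 (limma, Benjamini-Hochberg adjusted p = 0.0862 over 9553 genes). In the same fit 30.8% of all genes passed, 13.3% higher and 17.5% lower in relapse, and Ubd ranked 311 by the size of its rise. An exact permutation test of the 10 tumours gave p = 0.0556 (two-sided, 252 splits, smallest possible 0.00794). Of the 5 relapse tumours, 3 lay above the highest ctrl tumour and 4 above the ctrl mean, so the groups overlapped. The result moved with single tumours: the difference was 1.25 without relapse replicate 3 (adjusted p = 0.124) and 2.46 without relapse replicate 5 (adjusted p = 0.0424). Median centring of the arrays in place of quantile normalization gave 2.28 (adjusted p = 0.0454), and slide as a fixed block, with 32.0% of all genes called, gave an adjusted p of 0.0767.

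The slides divided the relapse tumours. On slide 6, Ubd averaged 8.15 in relapse tumours 1 to 3, with a range of 6.19 to 9.78, and 4.73 in ctrl tumours 1 to 3, with a range of 4.62 to 4.90. The within-slide difference was 3.42 ± 0.80 (limma adjusted p = 0.0503), in a fit that called 5.95% of all genes. On slide 7, Ubd averaged 5.15 in relapse tumours 4 and 5, against 5.39 in ctrl tumours 4 and 5, a difference of -0.24 ± 0.47 (adjusted p = 0.732), in a fit that called 25.6% of all genes. Tumours 4 and 5 shared only that slide with their controls, so slide and tumour cannot be told apart in the spread of relapse values.

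The genes of the immunoproteasome were all higher in EDT tumours. All 5 tested genes passed, where 29.6% of all genes were called (14.5% higher and 15.1% lower in EDT), with a median difference of 1.71 on the log2 scale, beside -0.05 over all genes. This contrast is the one on which Ubd was chosen and the list was drawn up with earlier results known, so the count is given as a description. With slide as a fixed block, which called 10.9% of all genes, 4 of the 5 passed, and within slide 5, which called 5.02%, 3 did. The catalytic subunit genes Psmb9 (LMP2) and Psmb8 (LMP7) had the largest differences, 3.58 ± 0.29 and 3.22 ± 0.21, which is 11.9-fold and 9.31-fold. Psmb8 lay between 12.46 and 13.42 in EDT tumours and between 8.76 and 10.44 in NT tumours. The groups did not overlap, as in 4.58% of all genes with higher values in EDT (6.07% in either direction). Psmb10 (MECL-1), the remaining catalytic subunit gene, was 1.71 ± 0.18 higher. Psme1 and Psme2, which encode the PA28 activator that caps the proteasome, were 1.15 ± 0.14 and 0.70 ± 0.20 higher.

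In relapse tumours, which took no part in the choice of Ubd, 2 of the 5 immunoproteasome genes rose, beside 13.3% of all genes. Psmb8 had log2 signals of 12.07, 11.69, 13.14, 10.53 and 9.80 in relapse tumours 1 to 5, against 5.71, 7.66, 6.91, 6.89 and 9.07 in ctrl tumours 1 to 5. The groups did not overlap, as in 7.43% of all genes with higher values in relapse (18.1% in either direction), and the difference was 4.20 ± 0.68 (limma adjusted p = 0.00144). Psmb9 had 11.61, 10.66, 12.63, 9.62 and 8.81 in relapse tumours, against 7.03, 7.59, 7.87, 7.22 and 9.88 in ctrl tumours. Its difference was 2.75 ± 0.72 (adjusted p = 0.0142), although ctrl replicate 5 lay above relapse tumours 4 and 5. Psmb10 (0.82 ± 0.34, adjusted p = 0.0860), Psme2 (0.85 ± 0.36, adjusted p = 0.0901) and Psme1 (0.46 ± 0.25, adjusted p = 0.174) did not pass in limma. Psmb10 and Psme2 passed with median centring (adjusted p = 0.0302 and 0.00831), and Psme2 passed with the authors' values (adjusted p = 0.0419). Within slide 7 alone, 0 of the 5 passed.

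Among the enzymes and binding partners of FAT10, 1 of 6 tested genes rose and 2 fell in EDT, with a median difference of -0.16, beside 14.5% of all genes higher and 15.1% lower. In relapse 1 of 6 rose, with a median of 0.38, beside 13.3% of all genes higher. In EDT 0 of 6 passed with slide as a fixed block. The 1 listed gene left out was Nub1, whose human product speeds the breakdown of FAT10 and which did not pass the filter. Uba6, the activating enzyme gene, was lower by 1.17 ± 0.20 in EDT tumours (limma adjusted p = 0.000386) and had a difference of -1.27 ± 0.50 in relapse tumours (adjusted p = 0.0724), which was -1.36 with the authors' values (adjusted p = 0.0458). With slide as a fixed block the early difference was -1.12 ± 0.35 (adjusted p = 0.0579). Ube2z, the conjugating enzyme gene, had a difference of -0.56 ± 0.19 in EDT (adjusted p = 0.0379) and of 0.69 ± 0.22 in relapse (adjusted p = 0.0349). The early call was lost with the authors' values (adjusted p = 0.126), median centring (adjusted p = 0.635) and slide as a fixed block (adjusted p = 0.750). Mad2l1, a spindle checkpoint gene whose human product binds FAT10, was higher by 0.56 ± 0.12 in EDT (adjusted p = 0.00253), where slide as a fixed block gave 0.60 ± 0.24 (adjusted p = 0.124), and had 0.47 ± 0.24 in relapse (adjusted p = 0.155). Sqstm1 (the autophagy receptor p62), Psmd4 (a ubiquitin receptor of the proteasome) and Hdac6 (a deacetylase that carries proteins to aggresomes) did not pass in either comparison, with early differences between -0.24 and -0.07.

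ISG15 is the other well-known interferon-induced ubiquitin-like modifier, and its pathway was measured by 4 of 5 listed genes. All 4 passed in EDT, with a median difference of 1.48, and 1 of 4 did in relapse. Over all genes 14.5% were higher in EDT and 13.3% in relapse. With slide as a fixed block 2 of the 4 passed in EDT, with a median of 1.56. Isg15 itself was higher by 1.71 ± 0.36 in EDT (limma adjusted p = 0.00182), where slide as a fixed block gave 1.16 ± 0.54 (adjusted p = 0.191), and by 2.75 ± 0.78 in relapse (adjusted p = 0.0210). Usp18, which removes ISG15, was higher by 2.31 ± 0.30 in EDT (adjusted p = 1.97e-05) and had 2.20 ± 1.02 in relapse (adjusted p = 0.119). Its relapse values spread widely, at 11.77, 10.08, 12.90, 8.96 and 7.65 in tumours 1 to 5. Uba7 and Ube2l6, the activating and conjugating enzymes of ISG15, had early differences of 0.62 ± 0.15 and 1.26 ± 0.29 and passed in EDT. Uba7 had 0.67 ± 0.25 with slide as a fixed block and no longer passed (adjusted p = 0.104). In relapse they had differences of -0.24 ± 0.35 and 0.95 ± 0.55 and did not pass, and a difference between the comparisons was not tested.

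In EDT 14.5% of all genes were higher and 15.1% lower, and in relapse 13.3% and 17.5%. Among 12 tested genes of the other ubiquitin-like modifiers, 2 rose and 4 fell in EDT, with a median of -0.22, and 0 rose and 3 fell in relapse. Median centring gave 2 that rose and 0 that fell in EDT, with a median of 0.07, and 2 and 2 in relapse, and with slide as a fixed block 0 rose and 0 fell in EDT. Gabarapl1, an autophagy gene, was lower by 0.71 ± 0.18 in EDT (limma adjusted p = 0.00684, 0.215 with median centring and 0.171 with slide as a fixed block) and by 1.85 ± 0.31 in relapse (adjusted p = 0.00177). Among 11 tested genes of the constitutive 20S core, 4 rose and 0 fell in EDT, with a median of 0.20, and 3 rose in relapse. In EDT 1 of the 11 rose with slide as a fixed block and 0 did within slide 5. Psma4, with the largest early difference among them, was higher by 0.71 ± 0.13 in EDT and 0.77 ± 0.18 in relapse.

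**Figure D2:**
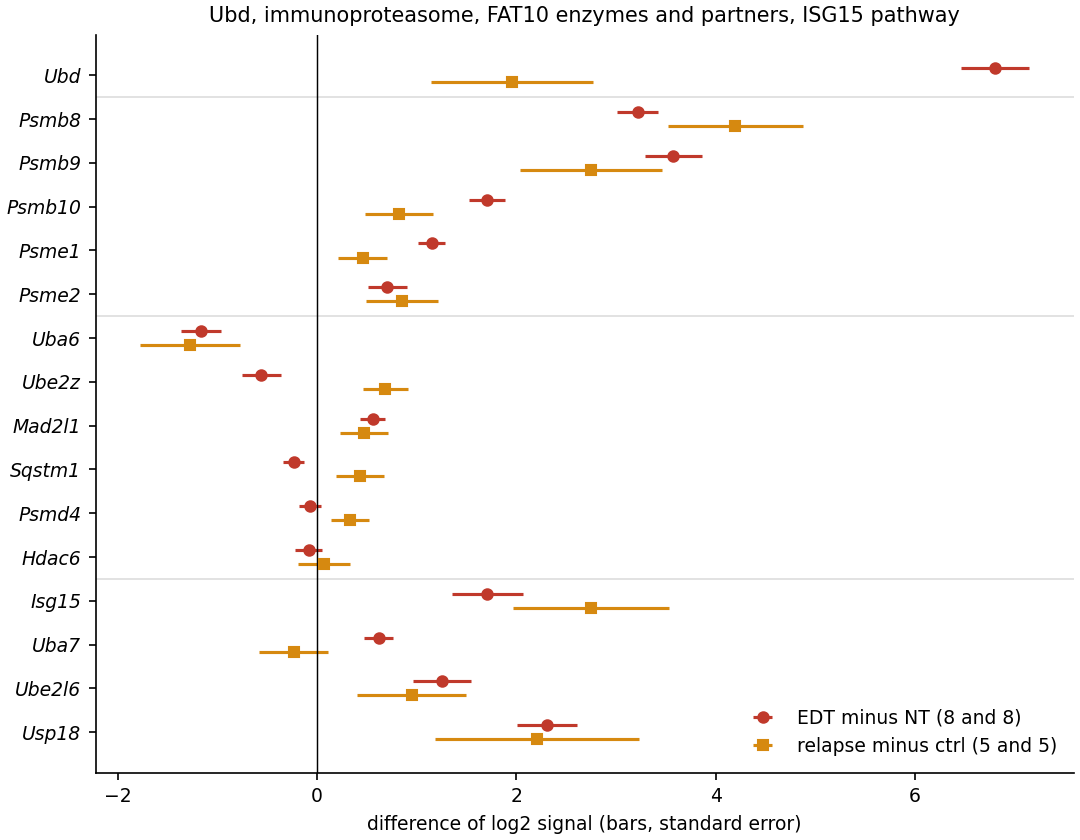
Difference of log2 signal (bars, standard error) for Ubd and for every tested gene of the immunoproteasome, FAT10 and ISG15 lists, as EDT minus NT (circles, 8 and 8 tumours) and relapse minus ctrl (squares, 5 and 5). Ubd stands at 6.81 in the early comparison and 1.95 in relapse, while Psmb8 stands at 3.22 and 4.20.

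Most tested genes of the interferon-gamma response rose in both comparisons. Of 23 listed genes 18 were tested. All 18 rose in EDT, with a median of 3.28, and 12 rose in relapse, with a median of 1.75 beside -0.07 over all genes. In the same fits 14.5% of all genes were higher in EDT and 13.3% in relapse. Of the 18, 5 were detected on no NT array and passed the detection filter through other groups. Cxcl9 was higher by 3.96 ± 1.08 in relapse (limma adjusted p = 0.0177), Cxcl10, another chemokine gene of the family, by 4.01 ± 0.64 (adjusted p = 0.00133), and the GTPase gene Igtp by 3.19 ± 0.80 (adjusted p = 0.0118). Of 20 listed antiviral response genes, which type I interferons also induce, 10 were tested. Of these 10, 7 rose in EDT and 4 in relapse. With slide as a fixed block, which called 10.9% of all genes, 6 of the 10 rose in EDT. Within slide 5, which called 5.02%, 2 of the 10 rose, beside 15 of the 18 interferon-gamma response genes. Oasl2, a 2'-5'-oligoadenylate synthetase-like gene, was higher by 2.52 ± 0.26 in EDT and 2.97 ± 0.60 in relapse. Of the interferons and their receptors, 3 of 7 tested genes rose in EDT and 2 of 7 in relapse. Ifng was detected on 7 EDT arrays and 0 of 8 NT arrays, and was at least 1.90-fold higher in EDT. It passed the detection filter through EDT tumours alone, so its early rise, counted among the 3, is given as a description. It was detected on 1 of 5 relapse arrays and 0 of 5 ctrl arrays, and had no call there (adjusted p = 0.423). Such a bound compares the mean of the brighter group with a floor for the other group, made on each array from the dimmest detected probe or from the gene itself if brighter.

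Peptide loading genes, which carry proteasome products onto MHC class I, rose in 5 of 8 tested genes in either comparison. Over all genes 14.5% were higher in EDT and 13.3% in relapse. Tap1, a subunit of the peptide transporter, was higher by 3.32 ± 0.26 in EDT and 2.11 ± 0.61 in relapse (limma adjusted p = 0.0215). Of the TNF and NF-kB genes, 10 of 13 rose in EDT and 9 of 13 in relapse. With slide as a fixed block, which called 10.9% of all genes, 6 of 13 rose in EDT. Of the 13, 3 were detected on no NT array. Tnf was detected on 8 of 8 EDT and 0 of 8 NT arrays, and on 5 of 5 relapse and 0 of 5 ctrl arrays. It was at least 1.57-fold higher in EDT (adjusted p = 0.000187, and 0.0839 with slide as a fixed block) and at least 1.82-fold higher in relapse (adjusted p = 0.00177). Icam1, an adhesion gene induced through NF-kB, was higher by 2.50 ± 0.31 in EDT and 1.93 ± 0.33 in relapse.

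Within slide 7, where the Ubd difference was -0.24, 1 of 18 interferon-gamma response genes, 0 of 10 antiviral genes and 0 of 4 ISG15 pathway genes rose in relapse, and 1 antiviral and 1 ISG15 pathway gene fell, in a fit that called 25.6% of all genes. Within slide 6, in a fit that called 5.95%, the counts that rose were 15, 6 and 2, and 0 fell.

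The relation of Ubd to these genes was examined within the 8 EDT tumours, where every array detected Ubd and the contrast that chose it plays no part. A list score is the mean log2 signal of the tested genes of a list, and 14 lists were related to Ubd. The immunoproteasome score was 12.27, 12.08, 12.22, 12.09, 11.36, 11.43, 11.57 and 12.23 in EDT tumours 1 to 8, beside Ubd values of 12.64, 11.79, 12.64, 12.40, 10.65, 10.30, 11.11 and 12.86. Tumours 5, 6 and 7 were the lowest in both, and the score had a gap between 11.57 and 12.08. Neither side of the gap holds 6 tumours, so no correlation was computed within either. Over the 8 tumours Pearson's r was 0.97 (exact permutation p = 0.000521, adjusted p = 0.00182 over 14 lists) and Spearman's rho was 0.95 (exact permutation p = 0.00114, adjusted p = 0.0128). Without EDT tumours 5 and 6, the farthest from the median score, r was 0.93. Across single genes of the list r lay between 0.67 and 0.98, with 4 of 5 genes over 0.9, beside 141 of 9552 over all genes and a median of -0.09.

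By Pearson's r, 9 of 14 lists passed, and by Spearman's rho 6 did. The antiviral interferon response (r = 0.98, exact permutation p = 9.92e-05, adjusted p = 0.00104, rho = 0.93) and peptide loading (r = 0.97, adjusted p = 0.00104, rho = 0.90) had the highest r, with the interferon-gamma response (r = 0.97, adjusted p = 0.00182, rho = 0.90) and the immunoproteasome next, and the immunoproteasome had the highest rho. The ISG15 pathway also passed by both measures (r = 0.94, adjusted p = 0.00229, rho = 0.90). Single genes of these lists varied more. An r over 0.9 was found in 13 of 18 interferon-gamma response genes, 5 of 10 antiviral genes and 1 of 4 ISG15 pathway genes. Among peptide loading genes it was found in 2 of 8, with r between -0.27 and 0.97 and a median of 0.47. In the constitutive 20S core 1 of 11 genes had an r over 0.9, with a median of 0.52. The constitutive 20S core passed too (r = 0.94, adjusted p = 0.00399, rho = 0.86), but its score spanned only 12.10 to 12.41, and with median centring r was 0.59 (adjusted p = 0.190). The interferon and receptor genes (r = 0.89, adjusted p = 0.0141, rho = 0.76) passed by r only and did not without EDT tumour 8 (adjusted p = 0.0524).

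The TNF and NF-kB score also passed by r only (r = 0.86, adjusted p = 0.0231). Its rho was 0.57 (adjusted p = 0.192), r was 0.64 without EDT tumours 5 and 6, and the call was lost without any 1 of tumours 3 to 8 (adjusted p between 0.0531 and 0.0660). The other ubiquitin-like modifiers ran against Ubd (r = -0.83, adjusted p = 0.0168), a relation that was -0.54 with the authors' values, -0.14 with median centring and -0.55 without EDT tumours 5 and 6. The FAT10 enzymes and partners had an r of -0.29 (exact permutation p = 0.473) and a rho of -0.19.

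EDT tumours shared slides, and with slide means subtracted r was 0.97 for the immunoproteasome, 0.98 for the antiviral response and 0.99 for the interferon-gamma response. That design allows 72 arrangements and a smallest p of 0.0139, and 0 of 14 lists passed (smallest adjusted p = 0.117), whereas 5 of 14 had an unadjusted exact permutation p under 0.05. The number of probes detected on an array had an r of 0.38 with Ubd (exact permutation p = 0.353, rho = 0.05).

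**Figure D3:**
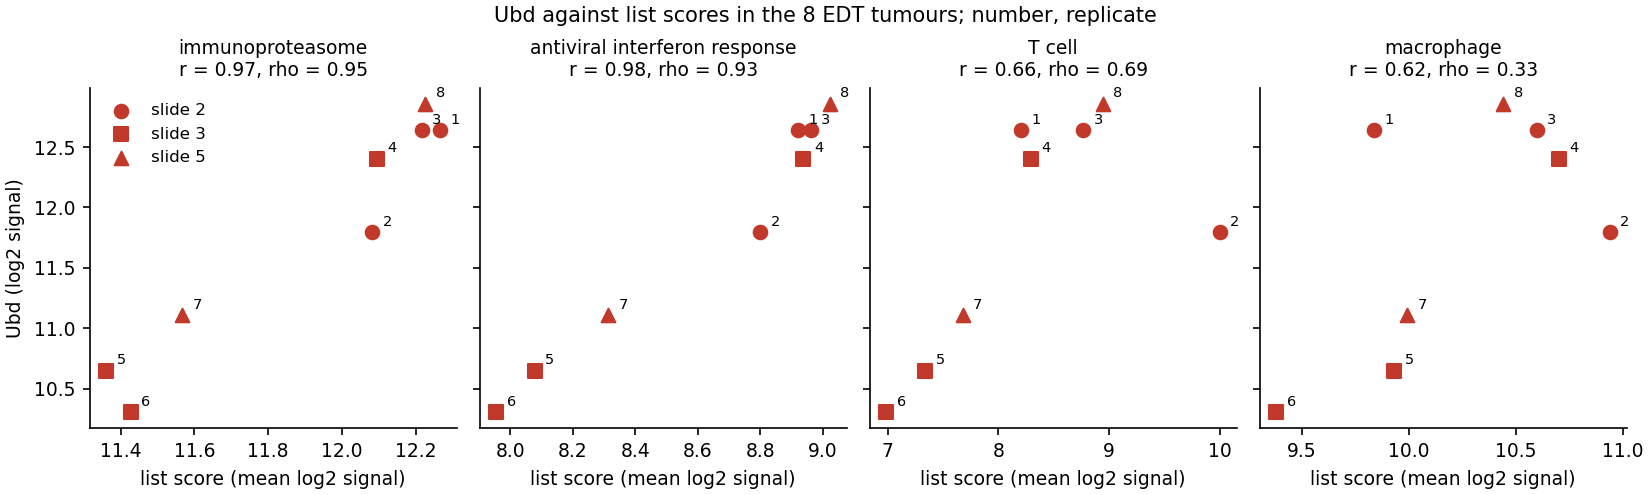
Log2 signal of Ubd against 4 list scores in the 8 EDT tumours, with numbers for replicates and symbols for slides. Tumours 5, 6 and 7 are lowest in Ubd and in the immunoproteasome and antiviral scores, and tumour 2 stands to the right in the T cell and macrophage scores.

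Bulk tumour RNA mixes cell types, and fewer cells of a type and less RNA per cell cannot be told apart. Markers of other cells moved with the groups and were set beside Ubd. Of 16 listed T cell markers 12 were tested, and all 12 rose in EDT, beside 14.5% of all genes. With slide as a fixed block and within slide 5, fits that called 10.9% and 5.02% of all genes, 8 of 12 rose. The T cell score lay between 6.99 and 10.004 in EDT tumours and between 5.34 and 5.97 in NT tumours. Of the 12 genes, 8 were detected on no NT array and passed the detection filter through other groups. Cd3d, a chain of the T cell receptor complex, was at least 22.8-fold higher in EDT (limma adjusted p = 9.33e-08). Across EDT tumours the T cell score had an r of 0.66 with Ubd (exact permutation p = 0.0725, adjusted p = 0.102, rho = 0.69). EDT tumour 2 had the highest T cell score, 10.004, with a Ubd of 11.79. With 1 tumour left out, r lay between 0.50 without EDT tumour 6 (adjusted p = 0.351) and 0.96 without EDT tumour 2 (adjusted p = 0.0037). With slide means subtracted it was 0.45.

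The macrophage score lay between 9.38 and 10.94 in EDT tumours and between 7.89 and 9.06 in NT tumours, and 10 of 11 genes rose, beside 14.5% of all genes. Its r with Ubd was 0.62 (exact permutation p = 0.108, adjusted p = 0.127, rho = 0.33). With 1 tumour left out, r lay between 0.37 without EDT tumour 6 (adjusted p = 0.443) and 0.80 without EDT tumour 1 (adjusted p = 0.0444). The dendritic cell score lay between 6.51 and 7.71 in EDT tumours and between 5.33 and 5.87 in NT tumours, with 5 of 7 genes higher. It had an r of 0.53 with Ubd (adjusted p = 0.198). With 1 tumour left out, r lay between 0.36 without EDT tumour 8 (adjusted p = 0.481) and 0.81 without EDT tumour 1 (adjusted p = 0.0444). With slide means subtracted, r was 0.84 for the dendritic cell score (adjusted p = 0.167) and 0.52 for the macrophage score (adjusted p = 0.306). Of B cell markers 2 of 8 were tested, too few for a score. Cd22, a B cell surface receptor gene, rose in EDT by 0.73 ± 0.26 (limma adjusted p = 0.0457, and 0.0583 without background correction) and had a difference of -0.06 ± 0.33 in relapse (adjusted p = 0.902). Cd79b, a chain of the B cell receptor, had a difference of 0.36 ± 0.25 in EDT (adjusted p = 0.300) and rose in relapse by 1.40 ± 0.31 (adjusted p = 0.00657). Melanocyte differentiation genes, which mark the tumour cells themselves, fell in 5 of 13 genes in EDT, beside 15.1% of all genes lower. Their score lay between 10.11 and 12.54 in EDT tumours and between 11.98 and 12.93 in NT tumours. With slide as a fixed block, and within slide 5, 0 of 13 fell, with a median difference of -0.26 in place of -0.85. The r of the melanocyte score with Ubd was -0.61 (exact permutation p = 0.103, adjusted p = 0.127, rho = -0.62). With 1 tumour left out, r lay between -0.96 without EDT tumour 2 (adjusted p = 0.0114) and -0.47 without EDT tumour 6 (adjusted p = 0.362). The part of cell composition in the Ubd values was not tested.

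**Figure D4:**
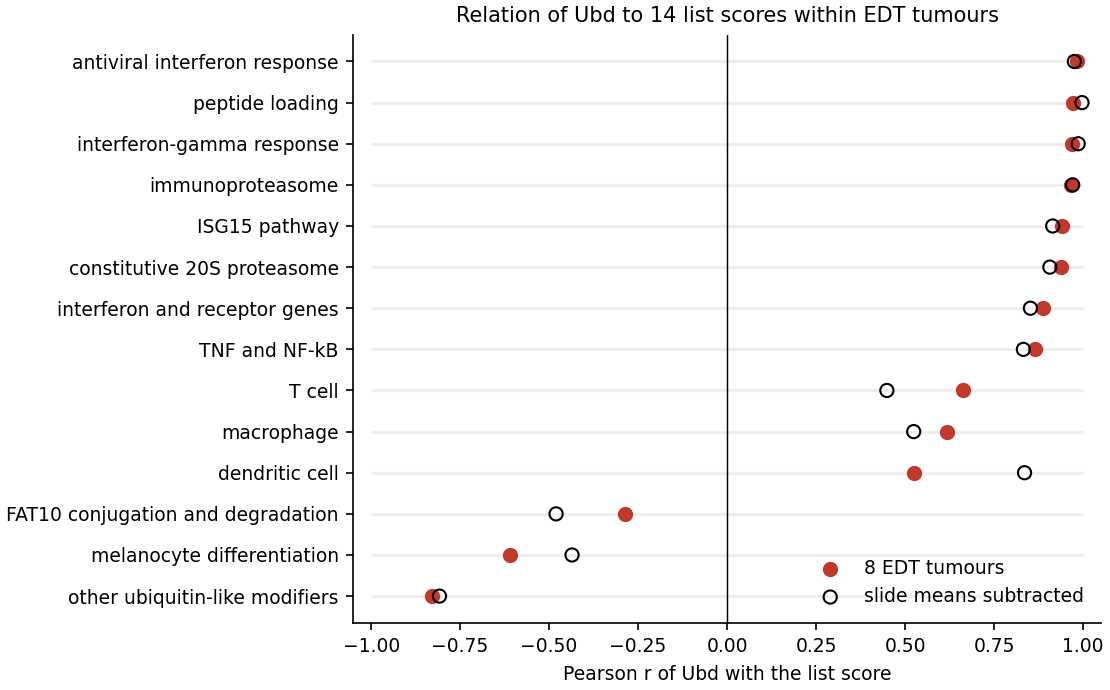
Pearson r between Ubd and each of 14 list scores across the 8 EDT tumours (filled), and after slide means were subtracted (open). The 4 interferon, immunoproteasome and peptide loading scores with the highest r exceed 0.96 either way, while after subtraction the T cell score stands at 0.45, against 0.66 before, and the dendritic cell score at 0.84, against 0.53 before.

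In the second table Ubd was detected on 1 of 5 ctrl arrays, so no correlation was tested there and the 5 relapse tumours were set in order. From highest to lowest Ubd they were tumours 3, 1, 2, 4 and 5, at 9.78, 8.48, 6.19, 5.37 and 4.92. Of the 14 list scores, 5 followed the same order, namely the immunoproteasome, peptide loading, ISG15 pathway, interferon-gamma response and antiviral response, as did 271 of 9552 single genes. The immunoproteasome score in that order was 11.89, 11.25, 10.82, 10.15 and 9.87, with ctrl tumours between 8.22 and 10.16. Psmb8 and Psmb9 followed the order gene by gene, whereas Psmb10, Psme1 and Psme2 did not. Among ctrl tumours, replicate 5 was highest in the log2 signal of Ubd (6.02) and in the immunoproteasome score (10.16). Its raw Ubd signal, 122.9, was below the 135.0 of ctrl replicate 2.

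The T cell score followed another order, tumours 1, 2, 4, 3 and 5, at 7.07, 7.05, 6.66, 6.55 and 5.99, with ctrl between 5.43 and 5.52. Of the 12 genes in this score, 2 were detected on no relapse array and 9 on no ctrl array. Tumour 3, with the highest Ubd, was next to lowest in T cell score, close to tumour 4. The order of tumours 3 and 4 was the reverse in Cd3d (8.11 and 6.86) and Cd3g (7.47 and 6.88), with the other genes not shown singly. Tumour 3 had the lowest macrophage score, 9.33, while tumour 5, with the lowest Ubd, had the highest, 11.24. All 5 relapse tumours exceeded the ctrl range of 7.43 to 8.70 in macrophage score, and 10 of 11 macrophage genes rose in relapse, beside 13.3% of all genes. Aif1, a gene of activated macrophages, was higher by 3.60 ± 0.41 (limma adjusted p = 0.000194). Within slide 7, in a fit that called 25.6% of all genes, 11 of 11 macrophage genes rose, and within slide 6, in a fit that called 5.95%, 7 of 11 did. Melanocyte differentiation genes fell in 13 of 13 in relapse, beside 17.5% of all genes lower. Their score was highest in tumour 3, at 11.22, and between 6.61 and 9.60 in the other relapse tumours, against 12.48 to 12.90 in ctrl tumours.

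**Figure D5:**
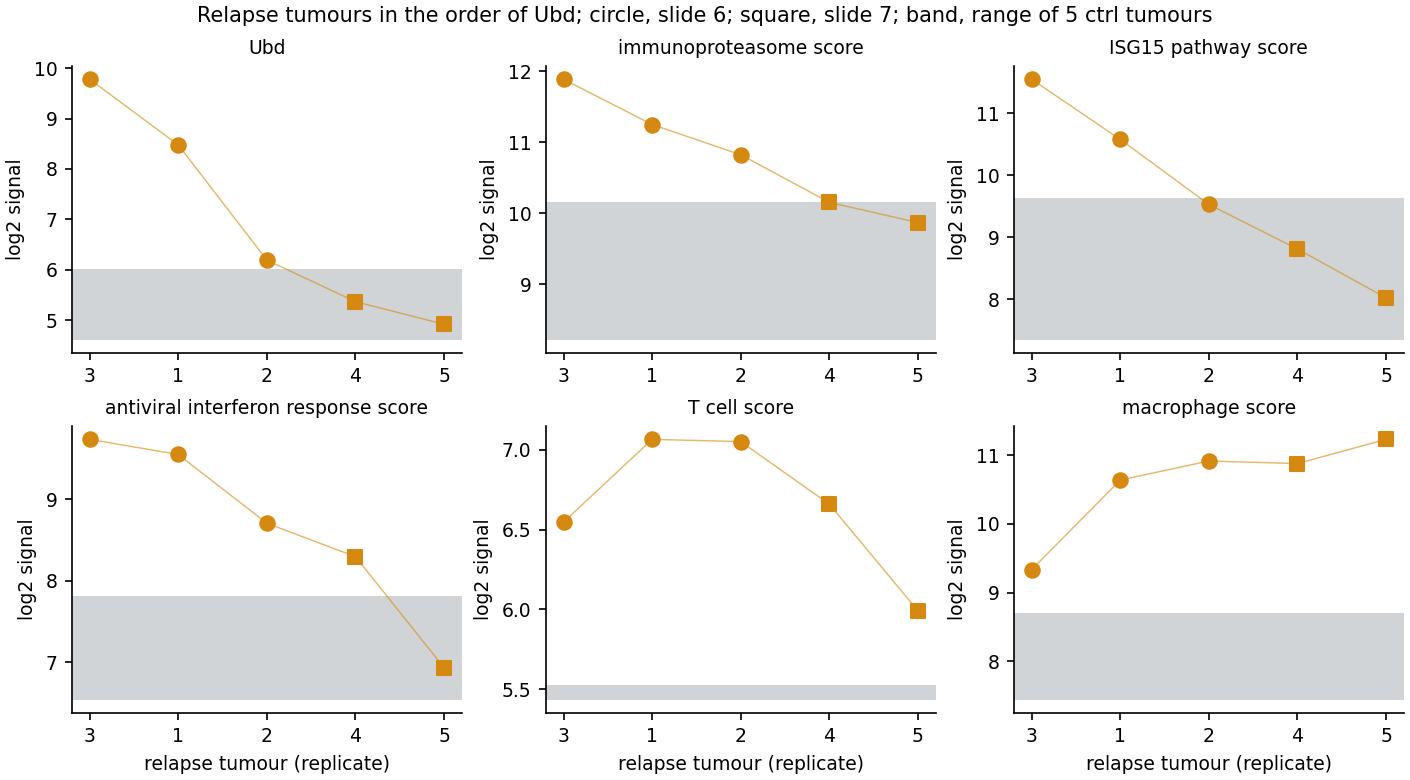
Log2 signal of Ubd and 5 list scores in the 5 relapse tumours, set from highest to lowest Ubd (circles, slide 6; squares, slide 7; band, range of the 5 ctrl tumours). The immunoproteasome, ISG15 and antiviral scores descend with Ubd, whereas the macrophage score is lowest in tumour 3 and highest in tumour 5.

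Genes whose pattern was most like that of Ubd were ranked by the lower of their Pearson r over the 8 EDT tumours and over the 10 tumours of the second table after group means were subtracted. These values describe the samples and carry no p. The second measure rests partly on ctrl arrays that did not detect Ubd, and relapse tumours, with an SD of 2.09 against 0.58 in ctrl, dominate it. Slide means were not subtracted in either measure. The 8 nearest genes were Gbp10 (0.95 in EDT and 0.98 in the second table), Serpina3f (0.98 and 0.95), Stat2 (0.95 and 0.95), A530032D15Rik (0.94 and 0.94), Gm12250 (0.96 and 0.94), Cd274 (0.94 and 0.94), Pacsin1 (0.93 and 0.95) and Il12rb1 (0.93 and 0.93). Over all genes the medians were -0.09 in EDT and 0.04 in the second table.

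Gbp10 encodes a guanylate-binding protein, one of the interferon-induced GTPases, and had log2 signals of 6.69, 5.82, 8.25, 4.46 and 4.34 in relapse tumours 1 to 5, against 4.42 to 5.50 in ctrl tumours, where no array detected it. Its difference there had no call (limma adjusted p = 0.193), whereas it was at least 7.01-fold higher in EDT, where 0 of 8 NT arrays detected it. Cd274 encodes PD-L1, the ligand of the T cell inhibitory receptor PD-1, and was higher by 3.37 ± 0.33 in EDT and by 1.60 ± 0.41 in relapse (adjusted p = 0.0129). Stat2, a transcription factor of the type I interferon pathway, was higher by 2.0 ± 0.24 in EDT and differed by 0.09 ± 0.44 in relapse (adjusted p = 0.893). Serpina3f was higher by 2.72 ± 0.79 in relapse (adjusted p = 0.0232), a call lost without background correction (adjusted p = 0.0579), and Gm12250 was at least 2.38-fold higher there (adjusted p = 0.0186, and 0.0568 without background correction). Pacsin1 and Il12rb1, a subunit gene of the interleukin-12 receptor, were each detected on 2 of 5 relapse arrays and 0 of 5 ctrl arrays and had no call in relapse. A530032D15Rik was detected on 5 of 8 EDT arrays, 2 of 5 relapse arrays, 0 of 8 NT arrays and 0 of 5 ctrl arrays. Both of its r values therefore rest partly on signals that were not detected.

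The genes beside Ubd on the chromosome gave no comparison. Gabbr1, a GABA receptor gene, and the olfactory receptor genes Olfr90 to Olfr98 make up the 10 nearest protein-coding genes in the RefSeq annotation. All 10 have a probe on the array, and 0 of them passed the detection filter.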

How the data were processed

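Mean bead signals were deposited as intensity values, 1 per probe and array. The values show that they had been neither corrected for background nor normalized. Detection p-values were deposited beside them. Per the file headers, the second table also gives a standard error and a bead count per probe, which describe Ubd only. A further table by the authors holds processed values, found to be on a log2 scale (slope near 1 against the log2 signal, same rank order, array medians between 4.66 and 4.86). How they were made is not given in the sources used here, and they served as an alternative.

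Of 45264 probes in the first table, 4 with mistyped values were left out, and 17 probes occurred in the second only. Each table was processed alone with neqc (limma 3.58.1, R 4.3.3, offset 16), with background estimated from the detection p-values. A gene was tested if a probe was detected (p under 0.01) on 5 arrays of a group, and the brightest such probe stood for it: 16624 probes and 9553 genes. Probe names came from the platform annotation (34871 probes with 1 symbol, 18 with several, 10371 with none). Values of the tables were not compared with each other. Tests were limma with Benjamini-Hochberg adjustment at 0.05 and exact permutations (Python 3.11.15). The limma fit and the list relations were tested on simulated data. A relation across the second table was planned only if 4 arrays of each group detected Ubd, and was not run.

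Ubd, the gene lists and the tests were chosen with earlier results of these data known. Named genes are all tested genes of the immunoproteasome, FAT10 and ISG15 lists, among the other lists those with the 2 largest changes in either comparison, the 3 genes after Ubd in the early rise, the 8 most like it and its neighbours. Alternatives were the authors' values, no background correction, median centring, other detection filters, slide or replicate as a block, single slides, and each tumour left out. Subtracting slide means and the exact test of Ubd were added after seeing the data. The result of 1 motif search is not reported here.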

Additional observations from a re-analysis of the deposited data

Results flagged for a closer look

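In 80 groups of 5 or 8 tumours, each group tested for a highest or lowest tumour far from the rest by Dixon's gap test, 4 stood out, and chance alone marks about 1 group in 20. Ubd was highest in ctrl replicate 5, at a log2 signal of 6.02, with the other ctrl tumours between 4.62 and 4.90. Without background correction these values were 7.33 and between 6.91 and 6.99. Psmb8 was lowest in NT replicate 8, at 8.76, with the other NT tumours between 9.73 and 10.44. The constitutive 20S score was lowest in relapse replicate 2, at 12.51, with the others between 12.72 and 12.80. The score of the other ubiquitin-like modifiers was highest in relapse replicate 3, the tumour with the highest Ubd, at 10.52, with the others between 10.10 and 10.17.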

How the results depend on the processing

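The early difference of Ubd lay between 6.66 and 7.02 with any 1 tumour left out and was 4.92 without background correction, where NT signals keep their background. The relapse difference of Ubd lay between 1.25 and 2.46 with any 1 tumour left out, was 2.28 with median centring, and reversed to -0.24 within slide 7, where it rests on 2 against 2 tumours; the cause was not tested. The early count of 2831 genes was 1045 with slide as a fixed block and 480 within slide 5, fits in which slide 5 alone sets EDT against NT tumours, and 2340 to 3099 with 1 tumour left out. The relapse count of 2944 was 568 within slide 6 and 2125 to 3943 with 1 tumour left out. Median centring moved the median of all genes to 0.29 in the early comparison and 0.30 in relapse, and split the calls into 2275 higher and 174 lower in EDT, against 1385 and 1446, and 2086 higher and 656 lower in relapse, against 1270 and 1674. Of 14 list relations, 6 to 11 passed by Pearson's r with 1 EDT tumour left out, against 9, and 0 did with slide means subtracted.

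With the replicate number as a block, the Ubd differences were 6.81 in EDT and 1.95 in relapse (limma adjusted p = 0.0932), and the counts 2514 and 3117. Same-numbered tumours correlated between -0.05 and 0.18 in the first table and between -0.06 and 0.34 in the second. Relapse tumours 1, 2 and 3 each correlated best with the ctrl tumour of their own number (r = 0.111, 0.285 and 0.344), and relapse tumours 4 and 5 did not. In the first table only EDT tumour 4 correlated best with its own number (r = 0.18). As this did not hold for all tumours, the numbers were not taken as pairs, and a pairing in the second table cannot be told from these values. Signals near background limit Ubd in NT and ctrl tumours: 1 of 8 and 1 of 5 arrays detected it.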
